A study of Neurospora crassa OR74A with 15 samples.

Results

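Neurospora crassa, a filamentous fungus that lives on dead plant material, holds 29 genes in these data that were higher on Avicel, a microcrystalline cellulose, than on every other carbon condition, but at moderate levels. They are 29 of 9733 loci and were chosen by measured values. In each, the lowest of the 3 Avicel libraries had at least 20 FPKM (fragments scaled by transcript length and by library size) and at least 2 times the highest of the other 12 libraries, and the Avicel mean was below 2000 FPKM. The ratio and the floor were passed by 73 loci. Of these, 40 lay at or above the ceiling, 33 below it, and 4 of the 33 were left out by name, clr-2 (NCU08042) among them. All comparisons of the 29 genes with their Avicel values are therefore descriptions, without a test.

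All 15 libraries came from mycelia of the wild-type strain FGSC 2489. Cultures were pregrown for 16 h on 2% sucrose, washed without carbon and kept for another 4 h in new medium. That medium held 2% Avicel (3 libraries), 2% xylan (1), 1% pectin (3), 1% orange peel powder (2), 2% sucrose (3) or no carbon (3). The xylan, pectin and orange peel powder libraries were made for the study itself and the other 9 come from an earlier one, so that carbon source and origin cannot be told apart between these sets. The design text calls the replicates biological. In RNA from whole mycelia, fewer cells of a type and less RNA per cell cannot be told apart.

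When N. crassa meets cellulose, secreted cellobiohydrolases, endoglucanases and lytic polysaccharide monooxygenases cut the polymer into cellodextrins, which transporters carry into the cell. The transcription factors CLR-1 and CLR-2 switch on most of these genes, and sugars such as glucose repress them. The secreted enzymes are folded and given N-linked glycans in the endoplasmic reticulum on their way out of the hypha.

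The moderate Avicel genes are mostly without a name: 27 of the 29 have no symbol of their own in RefSeq's table for assembly NC12, and no role is stated here for those. The named members are msh3 (NCU08115), a MutS homolog of DNA mismatch repair, and gh47-3 (NCU01059), of the glycoside hydrolase family that trims mannose from N-linked glycans. All 29 have a single transcript model, of 405 to 3891 bases with a median of 1469, against 1599 over all loci. In 8 of the 29 (27.6%) the model is as long as the locus, so that it holds no intron, as in 20.9% of all loci. None of the 55 genes in lists of the known cellulose programme (cellulose, xylan and mannan degradation, cellodextrin uptake and its regulators, and folding in the endoplasmic reticulum) is among the 29, but the choice of members fixed this. The 9 genes it bars by name are all in these lists, and 4 of them would otherwise have been taken. Of the 55, 29 passed the ratio and the floor, and all of these but the 4 lay at or above the ceiling. The absence is therefore no result about the members.

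Avicel replicate 1 stood apart from the other Avicel libraries, and most results for these genes rest on it in part. It holds about 60.4 megabases of mapped sequence, against 386 and 355 in replicates 2 and 3, 402 to 1052 in the libraries without carbon and 61.9 to 238 on sucrose. No depth could be derived for the 6 libraries of the study itself. Mean coverage of the 29 genes was 1.51 to 246 reads per base in replicate 1, 8.38 to 496 in replicate 2 and 7.53 to 531 in replicate 3. Without replicate 1 the same rule would take 42 genes, the 29 included. The ratio of the lowest Avicel to the highest other library ran from 2.00 to 84.3 with a median of 2.93 over the 29, and from 2.00 to 84.3 with a median of 4.11 without replicate 1.

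The genes with the clearest separation were NCU00763, NCU01076, NCU05056 and NCU07339, whose values outside Avicel stayed near or below 10 FPKM. NCU00763 had 196, 87.5 and 98.6 FPKM in Avicel replicates 1 to 3. It was at most 1.04 FPKM on pectin, at most 0.598 on orange peel powder and at most 0.611 without carbon, and was listed at 0 on xylan and in all sucrose libraries. The lowest Avicel value was 84.3 times the highest other one. NCU01076 had 1390, 364 and 528 FPKM on Avicel, 9.02, 10.7 and 5.15 on pectin, 2.98 and 4.63 on orange peel powder and 2.92, 4.71 and 5.08 without carbon, and was listed at 0 on xylan and sucrose. Its ratio was 34.1. NCU05056 was lower, with 24.9, 23.7 and 32.1 FPKM on Avicel and at most 0.963 elsewhere, and its ratio was 24.6.

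NCU07339 was the steadiest of the group on Avicel, with 203, 193 and 197 FPKM in the 3 libraries, including the shallow one. Without carbon it had 9.58, 7.51 and 9.81 FPKM, on pectin 3.35, 2.41 and 2.23, and on orange peel powder 1.74 and 2.47. It was listed at 0 on xylan and sucrose, and its lowest Avicel value was 19.7 times the highest other one. Over the 29 genes, 10 (34.5%) were listed at 0 in all 3 sucrose libraries, against 16.5% of all loci, and 8 (27.6%) in the xylan library, against 19.2%. The rule set an upper limit on these values in the 29 but not in all loci, so the shares are descriptions only.

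NCU00449 had 2536, 371 and 603 FPKM on Avicel and 37.7 in the xylan library, with no other library above 11.4. NCU05863 had 212, 562 and 661 FPKM on Avicel. Its next highest group was no carbon, with 21.2, 22.3 and 33.2 FPKM, and no pectin or orange peel powder library passed 3.55. These genes differ in which library comes second: xylan in the first, no carbon in the second.

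**Figure D1:**
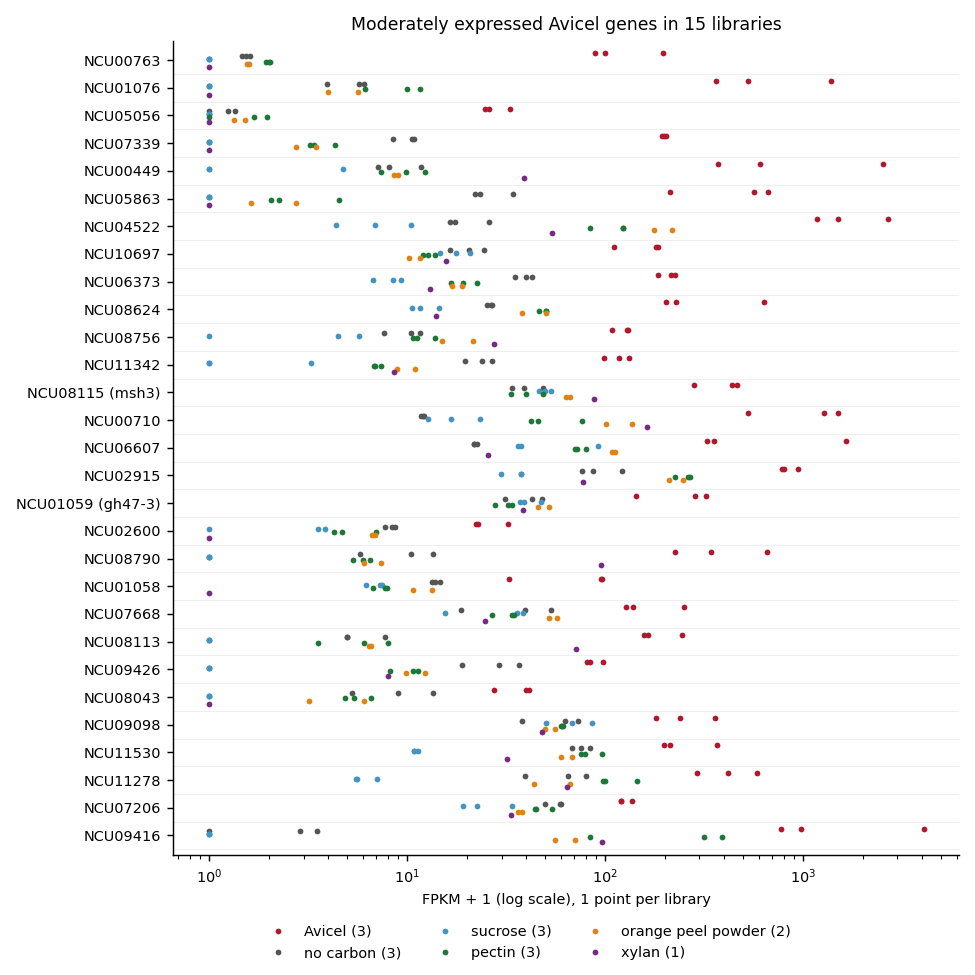
FPKM + 1 on a log axis for the 29 genes (rows, ordered by the ratio that chose them, highest at the top), 1 point per library, coloured by carbon condition. In each row the 3 Avicel points lie to the right of the other 12, by a ratio that falls from 84.3 at the top to 2.00 at the bottom.

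The levels spanned a wide range. The Avicel mean was over 1000 FPKM in 4 genes, between 100 and 1000 in 20 and under 100 in 5, with a range of 24.8 to 1941 and a median of 249. The highest mean, 1941 FPKM in NCU09416, rests on Avicel replicate 1 (4069 against 777 and 978). Without that library its mean was 877, below those of NCU00710 (1391) and NCU04522 (1335). NCU04522 had 2676, 1172 and 1497 FPKM on Avicel, 123, 122 and 82.9 on pectin and 176 and 216 on orange peel powder. Outside Avicel, 23 of the 29 genes stayed under 100 FPKM in each library and 4 stayed under 10. NCU10697 (109, 184 and 180 FPKM on Avicel) and NCU06373 (185, 215 and 224) peaked at 23.6 and 41.6 FPKM outside it, both without carbon. NCU08624 had 633, 203 and 228 FPKM on Avicel and at most 49.4 elsewhere, on pectin.

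The named members lay in the middle of the list. msh3 had 280, 436 and 461 FPKM on Avicel, 86.8 on xylan, 62.4 and 65.6 on orange peel powder, 32.5, 38.7 and 47.4 on pectin, 47.4, 33.0 and 38.1 without carbon and 48.6, 45.5 and 52.1 on sucrose. It was thus present in every condition, and its Avicel mean of 392 ± 97.7 (SD, n = 3) stood 9.93 times above the mean without carbon, 39.5 ± 7.30 (SD, n = 3). gh47-3 had 142, 285 and 321 FPKM on Avicel, 51.0 and 44.9 on orange peel powder, 33.1, 26.8 and 31.4 on pectin, 37.4 on xylan, 41.8, 30.1 and 47.3 without carbon and 46.5, 36.4 and 38.1 on sucrose. Its Avicel mean was 249 ± 94.8 FPKM (SD, n = 3), 6.27 times the mean without carbon, and the 12 other values lay between 26.8 and 51.0 FPKM.

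At the edge of the rule, NCU09416 had a lowest Avicel value of 777 FPKM against 388 in pectin replicate 1, a ratio of 2.00, NCU07206 had 119 against 59.1 without carbon (2.01) and NCU11278 had 292 against 145 on pectin (2.02). Just outside it lay gh2-1 (NCU00890) with 1271 FPKM against 642 in the xylan library (1.98), gh3-4 (NCU04952) with 189 against 98.2 without carbon (1.93) and NCU07979 with 114 against 61.0 on orange peel powder (1.88). At a ratio of 3 the rule would hold 14 of the 29 genes, and at 1.5 it would hold 55.

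The spread among the Avicel libraries was large and went in both directions. Replicate 1 was the highest of the 3 in 13 genes, the lowest in 12 and in the middle in 4. Against the mean of replicates 2 and 3 it ranged from 0.334 (NCU01058) to 5.21 times (NCU00449). It was at least 1.5-fold higher in 11 genes and at least 1.5-fold lower in 7, together 62.1%, compared with 37.2% of the 6897 genes that had at least 20 FPKM in all Avicel libraries. Among the 40 genes of the same ratio with higher means, 22 were at least 1.5-fold higher and 3 lower. Replicates 3 and 2 lay closer, at 0.978 to 1.63 times, with 3 genes past 1.5-fold (10.3%), compared with 1.77% of the 6897 genes. The median ratio of replicate 3 to 2 was 1.14 in the 29 genes and 1.01 in the 6897.

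For example, NCU06607 had 1649, 325 and 354 FPKM and NCU00710 had 524, 1283 and 1498. Their Avicel means were 776 ± 756 and 1102 ± 512 (SD, n = 3), a difference smaller than either SD. Across the 29 genes, the log2 ratio of replicate 1 to the others had a Pearson r of -0.10 and a Spearman rho of -0.11 with transcript length, given as a description, since all points share the same libraries. The part of depth in these differences was not tested.

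**Figure D2:**
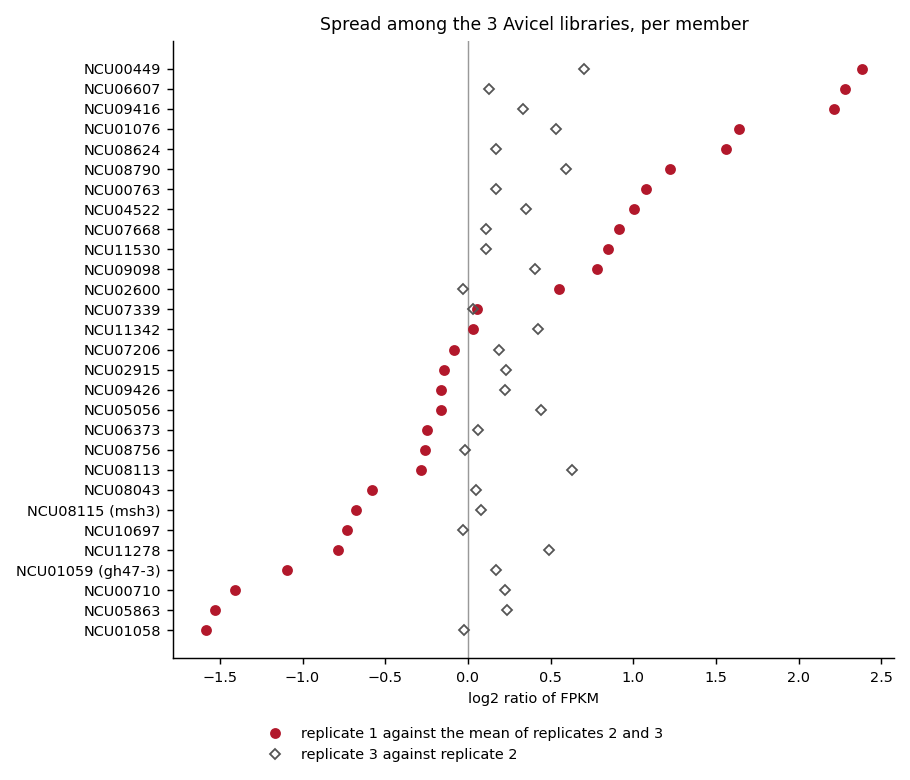
The log2 ratio of Avicel replicate 1 to the mean of replicates 2 and 3 (filled circles) and of replicate 3 to replicate 2 (open diamonds) for each of the 29 genes, ordered by the first. The circles spread to both sides of 0, with 11 genes at least 1.5-fold higher and 7 at least 1.5-fold lower, while the diamonds stay within 0.978 to 1.63 times.

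The authors' deposited table, which holds 1 pooled value per carbon source for 8496 genes, lists all 29. In the authors' deposited table the pooled Avicel value was 2.21 to 154 times the highest other pooled value in the 29 genes. It also assigns each gene to a cluster of expression patterns: 27 of the 29 are in cluster 3 of the authors' deposited table, which holds 421 genes (4.96% of that table) and also the 40 higher genes. The other members, NCU02600 and NCU07206, are in cluster 1 of the authors' deposited table, which holds 3009 genes. That table was made from the same libraries and is no independent evidence.

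A feature the rule did not use is position. Of the 29 genes, 12 (41.4%) are the next locus to another gene that passed the ratio and the floor, compared with 8 of the 40 higher genes of the same ratio (20%) and 144 of all 9733 loci (1.48%). A gene from the 40 higher ones is the next locus for 9 members (31.0%), compared with 79 of all loci (0.812%). Within 20 kb of a passing gene lay 15 members (51.7%), 13 of the 40 higher genes (32.5%) and 719 of all loci (7.39%). None of the 40 higher genes is the next locus to another of the 40, and the 8 are themselves neighbours of members. The shares of 41.4% and 20% thus count largely the same adjacencies from either end, and their difference is no separate result. These 12 members have 11 distinct genes as neighbours, and no member overlaps its neighbour in the deposited coordinates. The gaps run from 275 to 6202 bases with a median of 1418.5, and are under 500 bases for 4 members and over 2000 for 5.

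NCU00763 (contig 10.1, 7267094 to 7271438) lies 275 bases from gh5-1 (NCU00762), an endoglucanase gene with 68101, 32852 and 43671 FPKM on Avicel. Its Avicel mean was 0.264% of that of gh5-1, with 0.288%, 0.266% and 0.226% in replicates 1 to 3, so the pair kept a similar ratio across the Avicel libraries. Without carbon the share was 4.26%, 4.12% and 3.75%, but it rests on only 0.467 to 0.611 FPKM of NCU00763. NCU05056 (contig 10.6, 3896137 to 3898073) lies 292 bases from gh7-1 (NCU05057), of the cellulase family GH7, and its mean was 0.241% of that of gh7-1. In this pair the share was less even, with 0.145%, 0.334% and 0.349% in Avicel replicates 1 to 3.

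NCU07339 (contig 10.4, 4315214 to 4315966) lies 1332 bases from cbh-1 (NCU07340), the gene of a major secreted cellobiohydrolase, which had 186620, 86756 and 104215 FPKM on Avicel. Its share of the cbh-1 value was 0.109%, 0.222% and 0.189% in replicates 1 to 3: cbh-1 was highest in replicate 1, while NCU07339 was level. NCU08113 (contig 10.1, 314121 to 315177) and msh3 (contig 10.1, 325063 to 328500) flank cdt-2 (NCU08114), a cellodextrin transporter gene, at gaps of 3695 and 3983 bases. They had 0.333% and 0.695% of its Avicel mean. NCU08113 had 164, 157 and 242 FPKM on Avicel and msh3 had 280, 436 and 461, as given above, so that msh3 but not NCU08113 was clearly lower in replicate 1, as was cdt-2 with 34040, 64599 and 70796.

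NCU08043 lies 2708 bases from clr-2 (NCU08042), the gene of the cellulase activator, and had 26.6, 39.0 and 40.3 FPKM on Avicel against 1521, 1122 and 1290 for clr-2. NCU02915 lies 3228 bases from gh61-3 (NCU02916), of the lytic polysaccharide monooxygenases, and reached 6.46% of its Avicel mean. NCU10697 had 6.93% of the mean of NCU05068 at 1505 bases, NCU05863 had 4.54% of that of NCU05864 at 1060 bases and NCU09426 had 2.69% of that of NCU09425 at 6202 bases. The remaining pair consists of members: NCU01058 lies 466 bases from gh47-3, and both were lowest in Avicel replicate 1, at 31.8 and 142 FPKM.

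The members next to a much higher gene had 0.157% to 6.93% of its mean on Avicel. The labels' protocols describe no step that marks the strand of the RNA, so reads of neighbouring or overlapping transcripts may be counted together; their part in these low values was not tested. By coordinates 2 members overlap an adjacent locus: NCU00449 shares 79 bases with NCU00448 and NCU11530 shares 7 bases with NCU00722. NCU00449 had 2536, 371 and 603 FPKM on Avicel where NCU00448 had 44.3, 59.9 and 65.0.

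Loci beside the 40 higher genes were also tested without the members. Of 70 such loci 61 had a mean of at least 1 FPKM and could be tested, and 15 (24.6%) were called higher on Avicel than without carbon by limma, against 4.03% of all 8700 genes tested; 2 were called lower. The median log2 fold change of the 61 was 0.37, and that of all genes was -0.15. Here and below, calls needed at least a 2-fold change and a p under 0.05 after Benjamini-Hochberg adjustment over all genes tested.

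**Figure D3:**
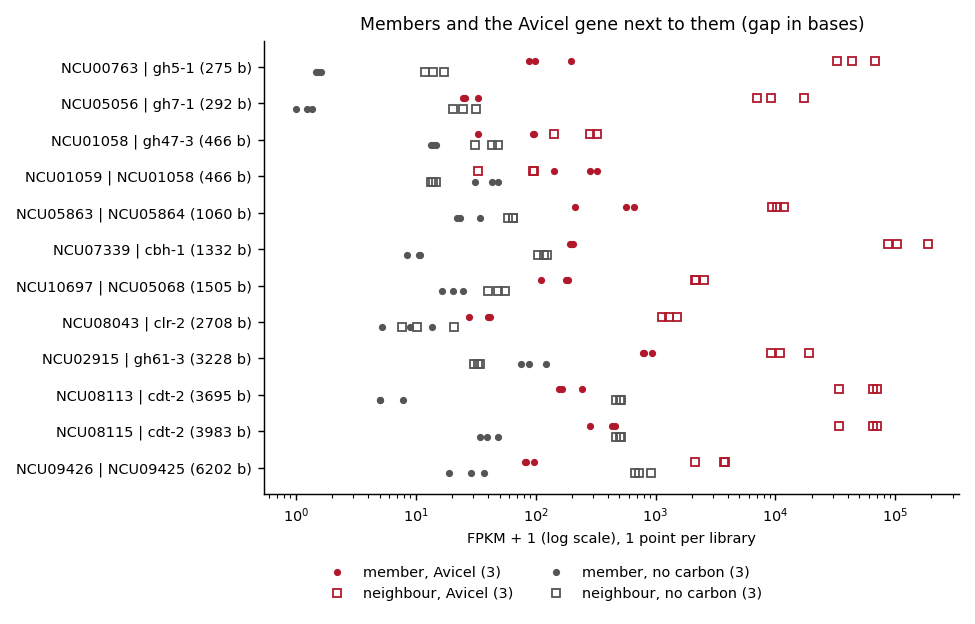
FPKM + 1 on a log axis for the 12 members that are the next locus to another Avicel gene (filled circles) and for that neighbour (open squares), in the 3 Avicel (red) and 3 no-carbon (grey) libraries, ordered by the gap in bases. The neighbours in the top rows, gh5-1 and gh7-1, lie at 275 and 292 bases and far to the right of the members on Avicel.

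The single xylan library had the highest value outside Avicel for 6 of the 29 genes, and 8 genes had over 50 FPKM in it. The shares of all loci were not computed, and the rule had set an upper limit on these values. The counts are therefore given as values only. NCU00710 had 162 FPKM on xylan, above 136 and 100 on orange peel powder and 41.5 to 75.6 on pectin. NCU08790 had 94.9 FPKM on xylan and at most 12.5 in the 11 other libraries without Avicel, and NCU08113 had 70.1 FPKM against at most 7.02. With 1 library there is no replicate check of these levels. The highest library outside Avicel was a no-carbon one for 10 genes, a pectin one for 8, orange peel powder for 4 and sucrose for 1. If the xylan library were left out of the rule, 37 genes would pass, the 29 included.

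Contrasts without Avicel were tested with limma, although the rule had set an upper limit on the values compared. All 29 genes passed the filter of a mean of 1 FPKM, 27 of them also without the Avicel libraries (the others were NCU00763 and NCU05056). Without carbon, 19 of the 29 were called higher than on sucrose and none was called lower, against 34.2% and 18% of all genes tested. Limma gave 20 of the 29 an unadjusted p under 0.05, but the share of all genes at that limit was not computed. Among the 19, 7 were listed at 0 in all sucrose libraries and 12 were not. The median log2 fold change of the 29 was 1.52, and that of all genes was 0.38. The split depends on the scaling. Quantile normalization, which moved the median of all genes to -0.05, left 5 called higher and 5 lower, against 22.9% and 22.6% of all genes. It left 12 of the 29 above the median gene, against 21 on the values as deposited.

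NCU09426 had 28.0, 17.9 and 35.8 FPKM without carbon and was listed at 0 in all sucrose libraries (limma, adjusted p = 2.64e-08). NCU05863 had 21.2, 22.3 and 33.2 FPKM without carbon and was likewise listed at 0 on sucrose (limma, adjusted p = 1.68e-06). So was NCU07339, with 7.51 to 9.81 FPKM without carbon (limma, adjusted p = 1.36e-07); its call was lost under quantile normalization and when values under 10 FPKM were set to 10. In these 3 genes the groups did not overlap, and a fold change is not given against a group at 0.

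NCU11342 had 18.6, 23.0 and 25.9 FPKM without carbon against 0, 2.27 and 0 on sucrose, a log2 fold change of 3.97 ± 0.39 (SE; limma, adjusted p = 2.54e-06). With sucrose values at or near 0 this size depends on the added 1 FPKM, and it ran from 1.08 to 6.28 over the alternatives, in all of which the call held. NCU11278 had 64.0, 38.4 and 78.7 FPKM without carbon against 4.60, 6.04 and 4.53, a log2 fold change of 3.29 ± 0.32 (SE; limma, adjusted p = 1.96e-06), or 1.98 under quantile normalization. The named members did not pass the test, with log2 fold changes of -0.31 ± 0.22 for msh3 and -0.04 ± 0.28 for gh47-3 (SE).

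Markers of conidia and aerial hyphae also differed between the groups, but not all in the same way. All 6 were found (eas, con-10, con-6, ccg-1, fl and acon-3), and their summed level was 341094 to 381309 FPKM without carbon, 89365 to 157358 on Avicel, 15426 to 40452 on pectin, 14954 to 25472 on orange peel powder, 25793 on xylan and 535 to 1775 on sucrose. con-10 and con-6 were listed at 0 in sucrose replicate 1, and con-10 also in replicate 3. Most of each sum came from ccg-1 and eas. fl had 24.8 to 52.6 FPKM on pectin, 29.0 to 39.9 on orange peel powder and 37.5 on xylan, against 28.1 to 37.6 on sucrose. acon-3 had 6.38 to 7.56, 7.79 to 9.06 and 7.28 FPKM on these, against 3.65 to 10.5 on sucrose. Without carbon fl had 94.0 to 223 FPKM and acon-3 46.4 to 192, and on Avicel they had 58.8 to 96.7 and 19.8 to 47.1. The vegetative markers hex-1 and so, both found, summed to 30716 to 33517 FPKM without carbon, 24804 to 31155 on sucrose, 28349 to 36942 on Avicel, 16410 to 22533 on pectin, 21185 to 22709 on orange peel powder and 32897 on xylan. Their part in the results for the 29 genes was not tested.

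Against no carbon, pectin gave 5 higher and 5 lower calls among the 29 genes, against 10.4% and 10.9% of all genes tested, and 19 were not called. Under quantile normalization 8 were called higher and 3 lower, against 11.8% and 12.5% of all genes. On orange peel powder 5 were called higher and 5 lower, against 10.4% and 10.7%, and 19 were not called. With 29 genes the counts of 5 lie near the shares of all genes, and all these counts are given as values only. Both comparisons use the same no-carbon libraries, so they are given side by side and not as independent results. The groups in them also differ in the study they come from.

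NCU09416 (contig 10.7, 3064863 to 3066202) rose in both comparisons. It had 388, 316 and 83.2 FPKM on pectin and 55.0 and 69.3 on orange peel powder, against 0, 2.50 and 1.88 without carbon. The log2 fold change was 6.66 ± 0.69 on pectin (SE; limma, adjusted p = 3.06e-05) and 4.86 ± 0.77 on orange peel powder (SE; limma, adjusted p = 8.34e-04), and neither group overlapped with no carbon. The size depends on the added 1 FPKM, since the no-carbon values are near 0: over the alternatives it ran from 4.31 to 8.08 on pectin and from 2.51 to 6.27 on orange peel powder, and without pectin replicate 3 the pectin value was 7.34. It had 95.1 FPKM on xylan, 4069, 777 and 978 on Avicel, and was listed at 0 on sucrose.

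NCU04522 had 123, 122 and 82.9 FPKM on pectin and 176 and 216 on orange peel powder, against 16.4, 25.1 and 15.5 without carbon. The log2 fold changes were 2.47 ± 0.36 on pectin and 3.33 ± 0.40 on orange peel powder (SE; limma, adjusted p = 3.34e-04 and 1.30e-04). NCU00710, with 10.7, 11.1 and 11.1 FPKM without carbon, rose by 2.15 ± 0.37 on pectin and 3.30 ± 0.42 on orange peel powder on the log2 scale (SE; limma, adjusted p = 0.00112 and 1.86e-04). It lies 116 bases from gh3-8 (NCU00709), of glycoside hydrolase family 3, which had 2689 FPKM on xylan and 259, 207 and 592 on pectin.

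NCU02915 had 226, 268 and 262 FPKM on pectin and 210 and 246 on orange peel powder, against 75.1, 121 and 86.4 without carbon. It rose by 1.44 ± 0.18 and 1.29 ± 0.20 on the log2 scale (SE; limma, adjusted p = 1.43e-04 and 8.28e-04). NCU06607 had 71.4, 78.7 and 69.6 FPKM on pectin and 107 and 111 on orange peel powder, against 20.8, 21.5 and 20.8 without carbon. It had a log2 fold change of 1.75 ± 0.52 and 2.32 ± 0.58 (SE; limma, adjusted p = 0.0212 and 0.0109). On pectin the p was lower with the 2 groups of the comparison alone, without Avicel replicate 1 and without all Avicel libraries (limma, adjusted p = 3.58e-04, 7.31e-04 and 0.00177). Its call on pectin was lost without any one of the 3 pectin libraries or without no-carbon replicate 1 or 3 (limma, adjusted p = 0.0511, 0.0598, 0.0519, 0.0536 and 0.0576), and that on orange peel powder without either of its libraries (0.0761 and 0.0639).

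NCU05863 fell in both comparisons. It had 1.05, 3.55 and 1.26 FPKM on pectin and 0.627 and 1.74 on orange peel powder, against 21.2, 22.3 and 33.2 without carbon. The log2 fold change was -3.24 ± 0.44 on pectin and -3.62 ± 0.49 on orange peel powder (SE; limma, adjusted p = 2.36e-04 and 3.02e-04). The low groups did not overlap with no carbon. Over the alternatives the value ran from -3.81 to -1.24 on pectin and from -4.44 to -1.24 on orange peel powder, and the calls held in all of them.

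NCU07339, beside cbh-1, had log2 fold changes of -1.45 ± 0.23 and -1.69 ± 0.26 on pectin and orange peel powder (SE; limma, adjusted p = 6.37e-04 and 6.55e-04), from the low levels given above; both calls were lost with a pseudocount of 5 and when values under 10 FPKM were set to 10, and that on pectin also under quantile normalization. NCU09426 had 10.4, 9.75 and 7.25 FPKM on pectin and 11.4 and 8.85 on orange peel powder, with log2 fold changes of -1.44 ± 0.27 and -1.30 ± 0.30 (SE; limma, adjusted p = 0.00164 and 0.00694). The second call was lost without orange peel powder replicate 2 (limma, adjusted p = 0.0685).

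NCU06373 had 21.6, 18.1 and 15.7 FPKM on pectin and 15.8 and 17.9 on orange peel powder, against 41.6, 38.8 and 34.3 without carbon. Its log2 fold changes of -1.02 ± 0.19 and -1.13 ± 0.22 (SE; limma, adjusted p = 0.00204 and 0.00272) lie near the 2-fold limit, and the pectin value fell short of it without pectin replicate 3 or no-carbon replicate 1 (-0.91 and -0.96) and under quantile normalization (-0.94). Both fell short with a pseudocount of 5 (-0.89 and -0.98). NCU11342 had 6.39, 5.87 and 5.79 FPKM on pectin and 7.85 and 9.96 on orange peel powder, with log2 fold changes of -1.73 ± 0.39 and -1.24 ± 0.44 (SE; limma, adjusted p = 0.00531 and 0.0487). A pseudocount of 0.1 ended the pectin call (limma, adjusted p = 0.149). The orange peel powder call was lost in 15 of 25 alternatives, with an adjusted p of up to 0.378.

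Between orange peel powder and pectin, limma called none of the 29 genes, against 0.149% of all genes called higher and 0.161% lower. An unadjusted p under 0.05 was found for 4 of the 29. The share of all genes at that limit was not computed, so the 4 are given as a value only. The widest differences were 1.15 ± 0.42 for NCU00710 and -1.80 ± 0.77 for NCU09416 (log2 fold change, SE). Neither passed after adjustment (limma, adjusted p = 0.339 and 0.445).

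**Figure D4:**
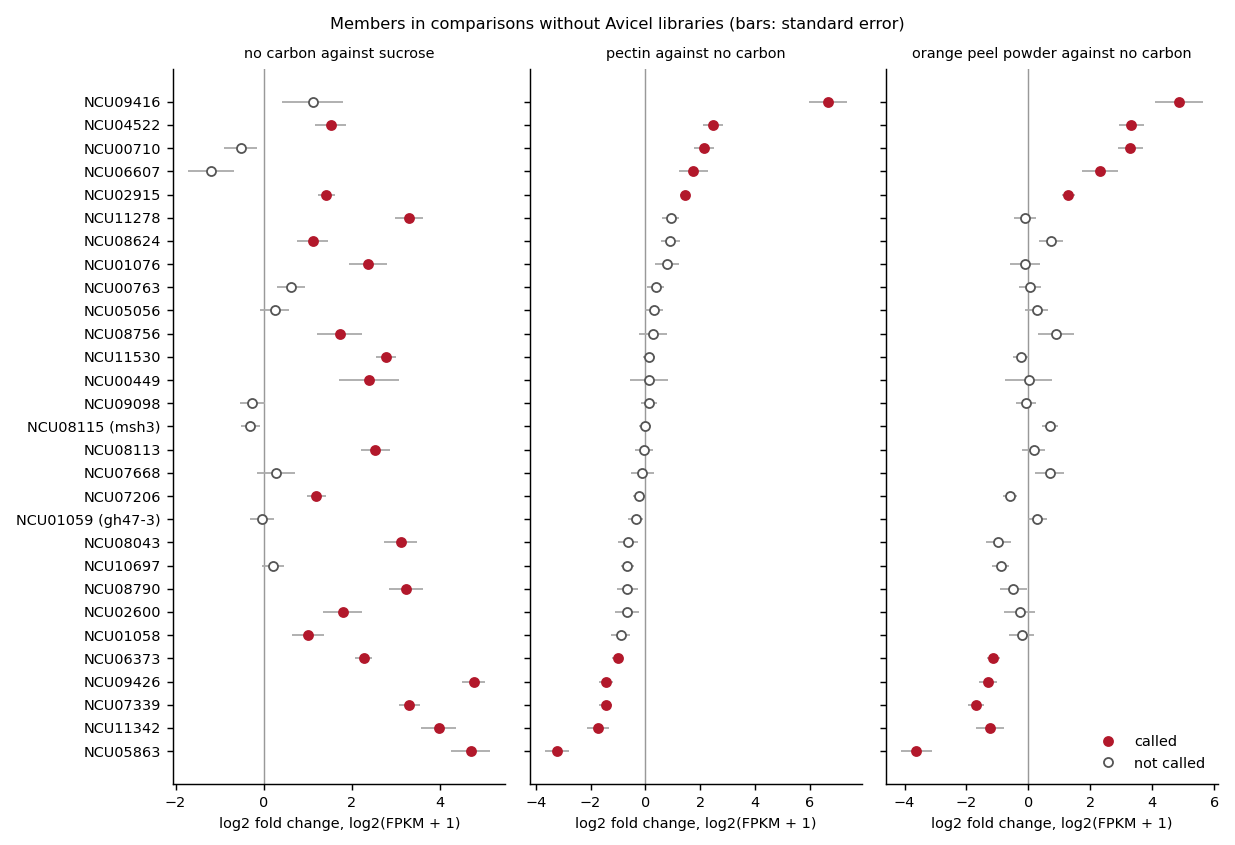
The log2 fold change on the log2(FPKM + 1) scale, with its standard error, of the 29 genes without carbon against sucrose (left), on pectin against no carbon (middle) and on orange peel powder against no carbon (right), ordered by the middle panel; filled points were called. The left panel has 19 filled points, all above 0, of which 7 are genes listed at 0 on sucrose whose plotted size depends on the added 1 FPKM, and the others have 5 above and 5 below 0 each.

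The listed genes of the known cellulose programme are set beside the 29 as a description. None of them is a member, and their calls are no result about the 29. Of the 55 listed genes, 29 passed the ratio and the floor: 17 of 27 for cellulose degradation, 5 of 9 for uptake and regulators, 4 of 13 for xylan degradation, 1 of 2 for mannan degradation and 2 of 4 for folding. Of the 26 that did not pass, 20 were called higher on Avicel than without carbon and none lower, against 4.03% of all genes tested. They include all 9 remaining xylan genes, among them gh11-1 (NCU02855), a xylanase gene, with a log2 fold change of 7.86 ± 0.72 (SE; limma, adjusted p = 1.67e-05). A beta-glucosidase gene, gh3-3 (NCU08755), rose by 4.33 ± 0.50 on the log2 scale (SE; limma, adjusted p = 1.39e-04) to an Avicel mean of 8732 ± 4587 FPKM (SD, n = 3); the member NCU08756 lies 679 bases from it and had 108, 130 and 128 FPKM on Avicel.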

How the data were processed

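Per the labels' protocols, libraries were built from oligo dT-selected RNA by random priming of RNA fragments. The authors deposited FPKM values for each of 15 libraries and 1 table of pooled FPKM. The 9 tables of the earlier study also hold a coverage signal and a transcript length, per the file headers. TopHat 1.2.0, Cufflinks 0.9.3 and Cuffdiff are named in the submitters' processing notes; the genome build is not given in the sources used here, nor is the annotation.

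Tables were joined by identical coordinates (9733 loci), because 863 loci carry different identifiers in the 2 kinds of table; FPKM of several transcripts of a locus were summed. Of the 29 genes, 2 are such loci: NCU11530 is NCU11542 and NCU07206 is NCU11690 in the earlier tables. Starts are printed counting from 1. RefSeq's NC12 table gave symbols only; 9215 loci and 28 of the 29 genes were found in it. Megabases of mapped sequence were derived from coverage and FPKM. FPKM are not counts, and whole reads were not recoverable, so no counting interval is given, and an exact 0 is written as listed at 0. Near-identical paralogs may share reads.

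The 14 libraries in 5 replicated groups entered 1 limma fit (limma 3.58.1, R 4.3.3) with a variance trend, on log2(FPKM + 1) of the 8700 genes whose mean reached 1 FPKM; it had 9 residual degrees of freedom and 2.94 prior ones. Calls needed a Benjamini-Hochberg adjusted p below 0.05 and a 2-fold change; tests are two-sided. The scale understates changes of low genes. The code was tested on simulated data. The alternatives were other pseudocounts, filters, scalings and fits, a replicate block and left-out libraries. Same-numbered libraries did not deviate together throughout, so the numbers were not taken as pairs. The r ran from -0.159 to 0.213 in the 4 comparisons of the 29 genes. For Avicel against no carbon it was -0.201, -0.313 and 0.451 in replicates 1 to 3.

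The 29 genes, the lists and the tests were chosen with earlier results of these data known. Named are genes with a symbol, the 10 largest ratios, up to 5 called genes per comparison and direction, 3 genes on each side of the ratio limit and up to 4 examples per list; genes named for their position, their xylan level or their spread on Avicel were singled out after their values were seen.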

Additional observations from a re-analysis of the deposited data

How the results depend on the processing

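Of 625 values of named genes under the alternatives, 589 kept their direction and call, 36 lost the call and none took the opposite direction. Much of this was fixed beforehand: another filter, a fit without variance trend or leaving out libraries of other groups cannot alter a fold change. The genes were also named for having the largest changes among those called. NCU07339 came to 0 when values under 10 FPKM were set to 10. The counts are therefore no measure of robustness. For no carbon against sucrose, the 19 called genes became 12 with a pseudocount of 5, 10 with quantile normalization (5 higher and 5 lower) and 9 with values under 10 FPKM set to 10, an alternative chosen after seeing the data; leaving out single libraries gave 17 to 20. The cause was not tested. Leaving out single libraries gave 8 to 10 called genes for pectin and 7 to 11 for orange peel powder against no carbon, 0 between these 2 and 18 to 21 listed genes on Avicel against no carbon, where the main counts are 10, 10, 0 and 20. A fit without the Avicel libraries, also chosen after seeing the data, gave 20, 10, 9 and 0. With the replicate number as a block the counts were 20 (19 higher and 1 lower), 10, 9, 0 and 20. The rule itself took 14 genes at a ratio of 3, 55 at 1.5, 28 to 42 without single Avicel libraries, and 28 when joined by identifier, 27 of them among the 29. Among the 9 libraries of known depth, low values rest on the least sequence in Avicel replicate 1 and sucrose replicate 1, with 60.4 and 61.9 megabases.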
